A study of Mus musculus with 4 samples.

Results

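The proteasome genes described here were the symbols that begin with Psma, Psmb, Psmc, Psmd, Psme, Psmf or Psmg followed by a number, with the interferon-inducible Psmb8, Psmb9 and Psmb10 left out. The rule took 47 of the 19737 genes in the deposited matrix, and 46 of them passed the filter on low counts. The proteasome degrades proteins that carry ubiquitin chains. Its barrel-shaped 20S core holds the protease sites, and the 19S particle at each end recognises, unfolds and feeds in the substrate, so that core and 19S particle together make the 26S proteasome. In microglia, the phagocytes of the brain, the proteasome serves protein turnover and, with interferon-inducible subunits, supplies peptides for antigen presentation. By their textbook roles, 31 of the 47 are constitutive subunits: 7 alpha and 7 beta core subunits, 6 ATPases and 3 other subunits of the 19S base, and 8 lid subunits. The other 16 are 6 activator and regulator genes, 4 core and 3 base assembly factors, the tissue-restricted Psma8 and Psmb11, and Psmc3ip, a recombination factor that is no proteasome subunit although its symbol fits the rule.

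RNA was measured by single-cell sequencing of sorted brain microglia from 20 mice, with 4 mice in each of 5 groups. All of the mice, controls included, carried TfRmu/hu, a chimeric transferrin receptor allele with the human apical domain in the mouse gene, on a C57BL/6J background, because the antibody transport vehicle (ATV) does not bind the mouse receptor. WT;TfRmu/hu mice received ATV:ISO, the isotype control on the ATV backbone, or ATV:4D9, a brain-shuttled form of the TREM2-activating antibody 4D9. AppSAA;TfRmu/hu mice, homozygous for the AppSAA knock-in that carries amyloid-related mutations in the mouse App gene, received ATV:ISO, 4D9 without the shuttle, or ATV:4D9. Each mouse was given 10 mg/kg intravenously and sampled 24 h later. An age of 8 months is stated for male mice of these genotypes, but whether that entry covers these animals is unclear, and 1 WT;TfRmu/hu mouse given ATV:ISO (pool 4) is recorded as female. The deposited isotype label differs in wording from ATV:ISO and was read as it. The cells were tagged and run in 4 pools, each holding 1 mouse of every group, and values below are given in the order of pools 1 to 4.

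Each mouse had 2193 to 6126 cells and 17150296 to 102446549 unique molecular identifiers (UMIs), so sums per mouse were deep for nearly all members. Cells of ATV:4D9 mice held more UMIs, with a mean of 16780 (WT) and 17116 (AppSAA) per cell against 8612, 11520 and 11926 in the WT ATV:ISO, AppSAA ATV:ISO and AppSAA 4D9 groups. The 7 microglia markers summed, in CPM (the share of a mouse's UMIs on the usual CPM scale), to 33043 to 35771 in WT ATV:ISO and 25155 to 28041 in WT ATV:4D9 mice, and to 27684 to 31128 and 24406 to 26540 in the AppSAA groups given these. Endothelial markers were also lower with ATV:4D9, at 9.49 to 12.9 against 18.3 to 24.4 CPM in WT and 13.2 to 25.9 against 37.5 to 52.2 CPM in AppSAA mice, while the lists for neurons, astrocytes, T cells and NK cells summed to at most 4.502 CPM and those for other brain and blood cells, red cells aside, to at most 71.0 CPM. In WT mice oligodendrocyte markers (34.1 to 46.3 against 57.8 to 71.0 CPM) were also lower without overlap. So were B cell (16.6 to 25.8 against 26.9 to 30.5 CPM) and neuron markers (0.479 to 0.856 against 1.12 to 1.77 CPM). In AppSAA mice the ranges of these lists overlapped. Immediate early genes, which rise on tissue dissociation, summed to 6620 to 8435 CPM in the ATV:4D9 mice and 7869 to 11480 CPM in the others, and 1 AppSAA ATV:4D9 mouse (pool 3) held 371 CPM of red-cell markers. In WT mice the immediate early sums did not overlap, at 9195 to 11480 CPM with ATV:ISO and 6620 to 8435 CPM with ATV:4D9. Of 74212 cell barcodes, 543 (0.732%) occurred in more than 1 pool. The part of depth per cell, these marker shifts, dissociation genes or pool in the results below was not tested.

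All 31 constitutive 26S subunits were higher in ATV:4D9 than in ATV:ISO mice of the WT genotype, with a median log2 fold change of 0.66 against -0.05 over the 14058 genes tested. Of the 46 members tested, 43 rose and 1 fell (edgeR quasi-likelihood test on UMI sums per mouse, Benjamini-Hochberg adjusted p under 0.05 over all genes), where 30.8% of all genes were called higher and 32.5% lower. The 31 subunits together took 0.334% ± 0.0156 (SD, n = 4) of all UMIs in WT ATV:ISO mice and 0.488% ± 0.0202 in WT ATV:4D9 mice, a ratio of 1.46. Counted per cell, the same total was 28.7 ± 1.203 UMIs and 81.8 ± 7.98 UMIs, a ratio of 2.85 that includes the difference in depth. For 29 of the 31 subunits every ATV:4D9 mouse lay above every ATV:ISO mouse, as it did for 24.3% of all genes. The exceptions were Psmd4 and Psmd11. In sums over whole mice, a different mix of cells and a different RNA content per cell cannot be told apart.

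**Figure D1:**
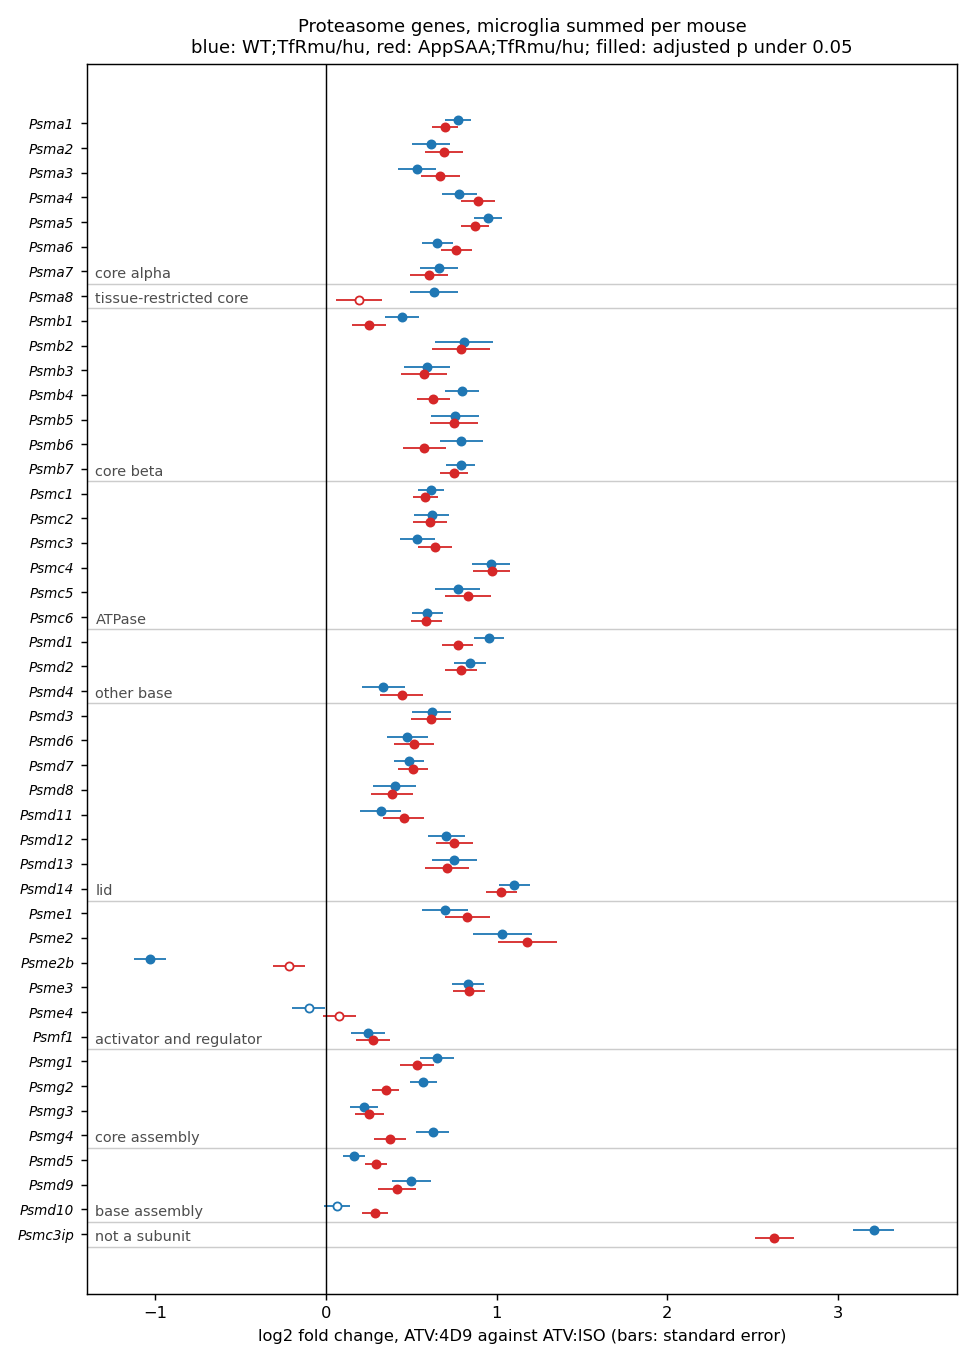
Log2 fold change (x axis, with its standard error) of each tested member between ATV:4D9 and ATV:ISO mice, blue for WT;TfRmu/hu and red for AppSAA;TfRmu/hu, grouped by role, with filled points for an adjusted p under 0.05. All 31 subunits lie to the right of 0 in both genotypes, Psme2b lies at -1.03 in WT mice and Psmc3ip at 3.21 and 2.63.

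The catalytic core subunits rose by a similar amount. Psmb5, the chymotrypsin-like subunit, was at 146, 136, 125 and 125 CPM in the WT ATV:ISO mice and at 231, 201, 200.3 and 199 CPM in the WT ATV:4D9 mice. Psmb6, the caspase-like subunit, was at 157, 144, 136 and 143 CPM and at 257, 211, 229.9 and 229 CPM. Psmb7, the trypsin-like subunit, was at 65.8, 63.2, 74.1 and 71.1 CPM and at 104, 96.4, 121 and 116 CPM. The groups did not overlap for any of the 3 genes, and their log2 fold changes were 0.76 ± 0.14 (SE) for Psmb5, 0.79 ± 0.13 for Psmb6 and 0.79 ± 0.08 for Psmb7 (edgeR adjusted p = 9.61e-05, 1.63e-05 and 7.51e-08).

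Among the structural core subunits, the alpha ring, whose tails gate the barrel, rose by log2 0.53 (Psma3) to 0.95 (Psma5). Psma5 was at 82.3, 85.2, 84.1 and 82.0 CPM with ATV:ISO and at 151, 144, 152 and 147 CPM with ATV:4D9 (edgeR adjusted p = 5.06e-09), so the groups did not overlap. The beta ring rose by 0.44 (Psmb1) to 0.81 (Psmb2). Psmb2 was at 153, 127, 121 and 114 CPM and at 242, 207, 192 and 191 CPM, a difference larger than the spread between pools (edgeR adjusted p = 0.000338). In both groups the mouse of pool 1 was the highest for Psmb2, and the 26S total was also highest in the pool 1 mouse of every group.

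The 19S genes rose over a wider range than the core. The 6 ATPases, the ring of motor subunits that unfolds substrates, rose by log2 0.54 (Psmc3) to 0.96 (Psmc4). Psmc4 was at 74.9, 69.2, 66.1 and 66.0 CPM in WT ATV:ISO mice and at 133, 118, 124 and 122 CPM in WT ATV:4D9 mice, with no overlap (edgeR adjusted p = 2.53e-07). Psmd1, a large scaffold subunit of the base, was at 72.3, 73.9, 67.8 and 65.3 CPM and at 126, 123, 127 and 124 CPM (log2 0.96 ± 0.09, edgeR adjusted p = 1.32e-08).

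Among these 19S genes, the largest and the smallest change both lay in the lid. Psmd14, the lid deubiquitinase that removes the chain from the substrate, had the largest fold change of the 31 subunits. Its level was 48.6, 48.1, 47.1 and 49.2 CPM with ATV:ISO and 95.9, 95.1, 97.3 and 94.6 CPM with ATV:4D9, a log2 fold change of 1.10 ± 0.09 (edgeR adjusted p = 2.18e-09). The smallest changes were those of Psmd11, a structural lid subunit (0.32, adjusted p = 0.0247), and Psmd4, a ubiquitin receptor (0.34, adjusted p = 0.0241). Leaving out single mice gave between 38 and 43 members called higher, against 43 with all mice. Psmd4 and Psmd11 were the only subunits among the calls lost, in 3 of the 8 runs, including the one without the female mouse (39 called).

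**Figure D2:**
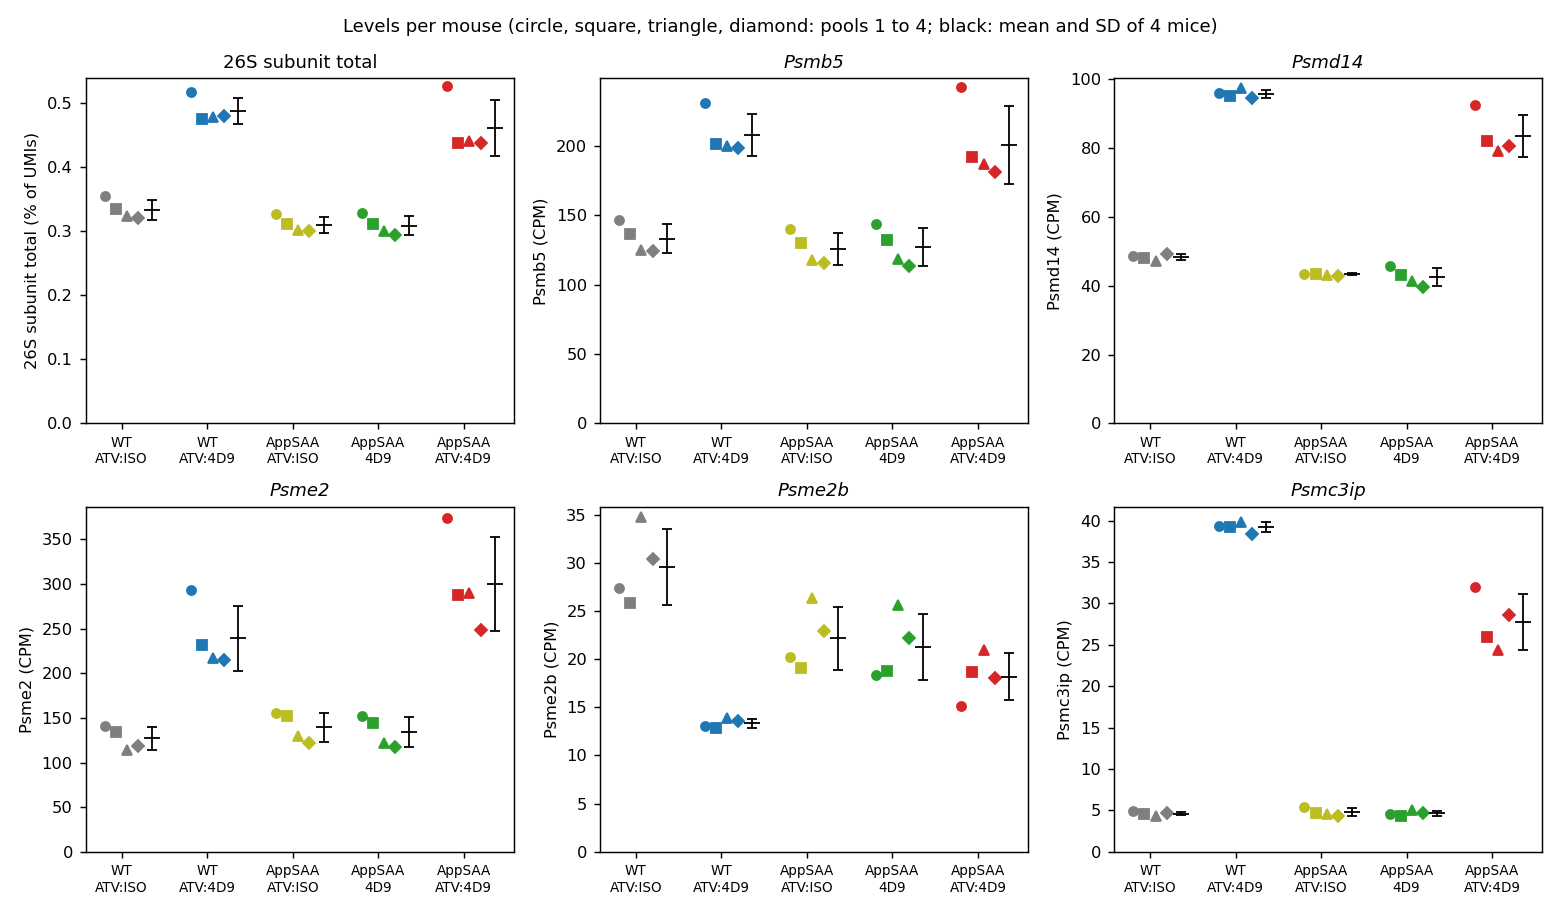
Levels in each of the 20 mice (y axis: percent of UMIs for the 26S total, CPM for the genes; symbols mark the pools; black bars are the mean and SD of 4 mice). The ATV:4D9 groups stand above the other 3 for the 26S total, Psmb5, Psmd14, Psme2 and Psmc3ip, while Psme2b is lowest in WT mice given ATV:4D9, at 12.9 to 13.9 CPM.

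The promoters of these genes were compared because the members moved together. RefSeq promoters (GRCm38.p6, 250 bases before to 50 after the start) were held for 39 of the 47 members, in 42 entries. They were not held for Psma8, Psmb1, Psmb2, Psmb7, Psmc3, Psmd3, Psmd7 and Psmg2. Of 4 motifs searched on both strands, CCGGAAG, the core bound by ETS factors, was in the promoter of 15 of 39 members (38.5%) against 9.93% of all 27025 genes with a promoter. TGACNNNGC, the antioxidant response element core used by NFE2L1 and NFE2L2, was in 6 (15.4% against 14%), CACGTG, the E-box, in 3 (7.69% against 8.09%), and CCAAT, the NFY box, in 14 (35.9% against 41.1%). No matches of different motifs overlapped in these promoters. The shares over all genes include genes not expressed in these cells, and the 39 members include some that did not rise, such as Psme4. Whether any motif bears on the change with ATV:4D9 was not tested. A match is a string of letters and no measured binding site. The windows below, 16 bases on either side of the match and before the RefSeq start, show the antioxidant response element cores of a core and an ATPase gene, 4 ETS cores of 19S genes, the NFY box of the subunit with the largest change, and an ETS core of Psmc3ip. Capitals mark the match, and each line reads 5′ to 3′ on the strand of its gene.
Psmb5 antioxidant response element core (chr14:54618018-54618058, minus strand): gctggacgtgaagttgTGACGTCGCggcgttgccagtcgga
Psmc6 antioxidant response element core, reverse complement (chr14:45329581-45329621, plus strand): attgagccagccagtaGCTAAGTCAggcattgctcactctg
Psmc6 ETS core (chr14:45329708-45329746, plus strand): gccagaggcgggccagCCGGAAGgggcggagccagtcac
Psmc1 ETS core, reverse complement (chr12:100110158-100110196, plus strand): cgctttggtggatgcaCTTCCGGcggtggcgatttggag
Psmd2 ETS core, reverse complement (chr16:20651610-20651648, plus strand): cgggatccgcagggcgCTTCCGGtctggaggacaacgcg
Psmd6 ETS core (chr14:14120968-14121006, minus strand): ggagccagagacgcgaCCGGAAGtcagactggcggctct
Psmd14 NFY box, reverse complement (chr2:61711519-61711555, plus strand): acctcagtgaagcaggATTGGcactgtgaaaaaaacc
Psmc3ip ETS core (chr11:101095490-101095528, minus strand): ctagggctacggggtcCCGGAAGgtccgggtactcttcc

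In AppSAA mice, which tested the same antibody on the amyloid background, all 31 subunits were again higher with ATV:4D9 than with ATV:ISO, with a median log2 fold change of 0.67 against -0.03 over all genes tested. Of the 46 members, 43 rose and none fell (edgeR; 27.9% of all genes higher, 27.1% lower). The 26S total was 0.311% ± 0.0124 (SD, n = 4) of UMIs in the ATV:ISO mice and 0.462% ± 0.0439 in those given ATV:4D9, a ratio of 1.49. Every ATV:4D9 mouse lay above every ATV:ISO mouse for all 31 subunits, as for 22.9% of all genes. Psmb5 was at 139.8, 129.8, 118 and 115 CPM and at 242, 192, 187 and 181 CPM (log2 0.75 ± 0.14, adjusted p = 0.000149). Psmd14 was at 43.5, 43.5, 43.2 and 42.8 CPM and at 92.6, 82.1, 79.1 and 80.7 CPM (log2 1.03 ± 0.09, adjusted p = 9.49e-09). The pool 1 mouse given ATV:4D9 was the highest for both genes. Psmb1 had the smallest change, 0.25 ± 0.10 (adjusted p = 0.0359), and its call was lost without the pool 1 mouse given ATV:4D9 or the pool 3 or pool 4 mouse given ATV:ISO. Without that pool 1 mouse 39 members remained called.

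The unshuttled antibody gave no call. Between 4D9 and ATV:ISO in AppSAA mice, edgeR called 0 of 46 members and 0% of all genes; 0 members and 79 genes had an unadjusted p under 0.05, and DESeq2 and limma-voom also called 0 members. The 26S total with 4D9 was 0.309% ± 0.0148 of UMIs, and Psmb5 was at 144, 132, 119 and 114 CPM and Psmd14 at 45.7, 43.1, 41.3 and 39.6 CPM, ranges that overlap those of the ATV:ISO mice. ATV:4D9 against 4D9, which compares the antibody with and without its shuttle, gave 43 members higher and none lower (27.6% of all genes higher, 26.7% lower) and a median of 0.67 over the 31 subunits. This comparison shares the AppSAA ATV:4D9 mice with the one above, and the comparison of 4D9 with ATV:ISO shares the AppSAA ATV:ISO mice with it.

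Genotype was compared first under the isotype control. Under ATV:ISO, AppSAA mice had 5 members higher and 1 lower than WT mice (edgeR; 14.4% of all genes higher, 13.7% lower). Both shares of the members tested were smaller than those of all genes. The 5 were the core subunits Psmb1 (log2 0.37 ± 0.10, adjusted p = 0.00886), Psmb4 (0.33 ± 0.10, 0.0144) and Psmb6 (0.39 ± 0.13, 0.0242), the activator Psme1 (0.39 ± 0.13, 0.0314) and the core assembly factor Psmg4 (0.50 ± 0.10, 0.00054). The base assembly factor Psmd5 was the one called lower, at -0.21 ± 0.07 (adjusted p = 0.0203), a call lost without the AppSAA pool 1 or the WT pool 2 mouse. No 19S subunit was called in the fit without a pool block, and the median over the 31 subunits was 0.03. The 26S totals of the groups overlapped (0.29998% to 0.327% of UMIs in AppSAA and 0.321% to 0.355% in WT mice). In every pool the AppSAA mouse had the lower 26S total. The 19S totals did not overlap, at 0.127% to 0.142% in AppSAA and 0.144% to 0.162% in WT mice. Core alpha totals did not overlap either and were lower in AppSAA mice, while core beta totals overlapped. These totals are plain shares of UMIs, whereas the fold changes are scaled between mice, and the measures differed in direction for the 31 subunits. Psmb6 and Psme1 lost their call without any 1 of 4 mice (AppSAA ATV:ISO pools 1 and 2, WT ATV:ISO pools 3 and 4, the last the female mouse), leaving 3 calls. With the pool as a block, 12 members were higher, the 19S genes Psmd1 and Psmd8 among them, and 3 lower, the ATPase gene Psmc3 among them, where 21.4% of all genes were called higher and 29.3% lower. This comparison shares its mice with both comparisons of ATV:4D9 against ATV:ISO.

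Under ATV:4D9, AppSAA mice had 3 members higher and 1 lower than WT mice (edgeR; 7.85% of all genes higher, 4.01% lower), and none of the 31 subunits was called. These too were smaller shares of the members tested than those of all genes. The lowest and highest subunit values were -0.05 (Psmd6) and 0.18 (Psmb6). The 3 higher were Psme1 (0.52 ± 0.13, adjusted p = 0.0113), Psme2b (0.58 ± 0.09, 0.000195) and the base assembly factor Psmd10 (0.26 ± 0.08, 0.0251), and Psmc3ip was lower (-0.35 ± 0.10, 0.0268). Psmd10 and Psmc3ip each lost their call without any 1 of 4 mice, and with the pool as a block 9 members were higher, 3 of them subunits (Psmb1, Psmb4 and Psmd8), where 16.9% of all genes were.

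Whether the change with ATV:4D9 differed between the genotypes was tested by their interaction. It was called for 1 member in the positive direction, Psme2b, whose fall was smaller in AppSAA mice, and for 1 in the negative direction, Psmc3ip, whose rise was smaller there (edgeR; 3.74% of all genes higher, 5.3% lower), and for none of the 31 subunits, whose values ranged from -0.22 (Psmb6) to 0.14 (Psma3). With the pool as a block 3 members were higher and 5 lower, 2 of the latter subunits (Psmb1 and Psmd1), where 16.7% and 13.5% of all genes were.

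Activator and regulator genes did not move as one group. Psme1 and Psme2, the 2 chains of the interferon-inducible PA28 cap, and Psme3, the nuclear PA28 gamma, rose in both genotypes. Psme2 was at 141, 135, 113 and 118 CPM in WT ATV:ISO mice and at 293, 232, 217 and 215 CPM in WT ATV:4D9 mice (log2 1.03 ± 0.17, edgeR adjusted p = 2.71e-05). In AppSAA mice it was at 155, 152, 130.0 and 122 CPM with ATV:ISO and at 374, 288, 290.4 and 248 CPM with ATV:4D9 (1.18 ± 0.17, adjusted p = 8.47e-06). Neither pair of groups overlapped, and the pool 1 mouse was highest in each ATV:4D9 group. Psme1 rose by 0.70 ± 0.13 and 0.83 ± 0.13, Psme3 by 0.83 ± 0.09 and 0.84 ± 0.09, and Psmf1, the inhibitor PI31, by 0.25 ± 0.10 and 0.28 ± 0.10. For Psmf1 the WT groups overlapped, at 16.7 to 20.5 CPM with ATV:ISO and 19.9 to 21.1 CPM with ATV:4D9. Psme4, the PA200 cap, was not called, with -0.10 ± 0.10 in WT and 0.08 ± 0.10 in AppSAA mice (adjusted p = 0.376 and 0.514). With the pool as a block Psme4 was called lower in WT mice.

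Psme2b, an intronless copy of Psme2 on chromosome 11 (GRCm38, 48945354 to 48946190), was the only member called lower with ATV:4D9 in WT mice. It was at 27.4, 25.8, 34.7 and 30.4 CPM in WT ATV:ISO mice and at 13.04, 12.9, 13.9 and 13.6 CPM in WT ATV:4D9 mice (log2 -1.03 ± 0.10, edgeR adjusted p = 1.1e-08). In AppSAA mice it was at 20.3, 19.1, 26.4 and 22.9 CPM with ATV:ISO, at 18.4, 18.7, 25.7 and 22.2 CPM with 4D9, and at 15.1, 18.6, 21.0 and 18.04 CPM with ATV:4D9, and these ranges overlap (log2 -0.22 ± 0.09 for ATV:4D9 against ATV:ISO, adjusted p = 0.0527). DESeq2, limma-voom and the fit with the pool as a block called this last difference. The interaction was 0.81 ± 0.13 (adjusted p = 0.00049). Reads of near-identical copies can be split or dropped in counting, and Psme2b also lies inside 2 other annotated genes on its strand, so its level is uncertain.

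All 4 core assembly chaperones rose with ATV:4D9 in both genotypes, where 30.8% (WT) and 27.9% (AppSAA) of all genes were called higher. Psmg1, which pairs with Psmg2 to build the alpha ring, was at 20.7, 20.6, 19.1 and 16.6 CPM in WT ATV:ISO mice and at 27.1, 27.2, 29.0 and 28.3 CPM in WT ATV:4D9 mice, with no overlap (log2 0.65 ± 0.10, edgeR adjusted p = 1.18e-05). The range over the 4 was 0.22 (Psmg3) to 0.65 in WT and 0.26 (Psmg3) to 0.53 (Psmg1) in AppSAA mice. For Psmg3 the WT groups overlapped, at 26.7 to 29.5 CPM with ATV:ISO and 28.2 to 33.4 CPM with ATV:4D9. Of the base chaperones, Psmd9 was at 33.8, 34.4, 30.4 and 29.2 CPM and at 45.8, 43.1, 39.0 and 38.8 CPM in the WT groups (0.50 ± 0.12, adjusted p = 0.000793). Psmd5 rose by 0.17 and 0.29, though its levels in the WT groups overlapped (21.2 to 24.8 and 23.1 to 24.5 CPM). Psmd10, also known as gankyrin, was not called in WT mice (0.07 ± 0.08, adjusted p = 0.473) and rose by 0.29 ± 0.08 in AppSAA mice, and its interaction was not called (0.22 ± 0.11, adjusted p = 0.236) except with the pool as a block.

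The largest fold change of any member belonged to Psmc3ip, whose product acts in meiotic recombination. It was at 4.90, 4.54, 4.35 and 4.63 CPM in WT ATV:ISO mice and at 39.3, 39.2, 39.9 and 38.4 CPM in WT ATV:4D9 mice (log2 3.21 ± 0.12, edgeR adjusted p = 7.24e-15). In AppSAA mice it was at 5.44, 4.67, 4.59 and 4.37 CPM with ATV:ISO, at 4.505, 4.29, 5.01 and 4.69 CPM with 4D9, and at 32.0, 25.95, 24.4 and 28.6 CPM with ATV:4D9 (2.63 ± 0.11 against ATV:ISO, adjusted p = 1.12e-13). The 2 ATV:4D9 groups did not overlap each other. The interaction was -0.58 ± 0.16 (adjusted p = 0.0244), a call that limma-voom and 5 of the 16 runs without 1 mouse did not make. The gene overlaps Mlx on the other strand.

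Of the tissue-restricted core genes, Psma8, the testis alpha subunit, averaged 5.03 CPM in WT ATV:ISO and 7.14 CPM in WT ATV:4D9 mice (log2 0.63 ± 0.14, edgeR adjusted p = 0.000562), and 5.18 and 5.67 CPM in the AppSAA ATV:ISO and ATV:4D9 groups, where it was not called. Psmb11, the thymus beta subunit, had 13 UMIs in all, in 4 of 20 mice, and was not tested. Besides Psme2b and Psmc3ip, 12 members overlap another gene of the matrix in the annotation, Psma2 and Psmd12 on the same strand, so some of their reads could belong to the neighbour.

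The cells carried deposited clusters, numbered 0 to 5 at resolution 0.2, and the subunits differed between them. Leading genes were Xist, Clec4a3 and Crybb1 for cluster 0, Spp1, Gpnmb and Fabp5 for cluster 1, Tnf and C5ar1 for cluster 2, Klf2 and Tsc22d3 for cluster 3, Mki67 and Prc1 for cluster 4, and Rsad2 and Ifit1 for cluster 5. Xist is expressed in female cells, 1 mouse is recorded as female, and its part in cluster 0 was not tested. Because clusters were made from the expression of these cells, levels between clusters are a description. In AppSAA mice given ATV:4D9, the 26S total was 3292 ± 145 CPM in cluster 0, 2687 ± 156 in cluster 1, 5114 ± 330 in cluster 2, 3254 ± 386 in cluster 3, 4970 ± 342 in cluster 4 and 4548 ± 398 in cluster 5 (SD, n = 4 mice). Each of the 31 subunits averaged above its cluster 0 level in clusters 2, 4 and 5, with median log2 ratios of 0.68, 0.61 and 0.49, while the median was -0.35 in cluster 1 and 0.02 in cluster 3. Over the 8028 genes at a mean of 10 CPM or more, the medians were -0.37 in cluster 1 and -0.099 in cluster 3. In clusters 2, 4 and 5 they were -0.08, -0.06 and -0.17 (all with 1 CPM added to each level). In cluster 1 the subunits thus lay near the median of all these genes. The subunit medians in clusters 2, 4 and 5 were 0.48, 0.43 and 0.50 in WT ATV:4D9 mice. They were 0.34, 0.29 and -0.02 in AppSAA ATV:ISO mice and 0.36, 0.30 and -0.03 in AppSAA 4D9 mice, where 15 and 10 of the 31 subunits lay above their cluster 0 level in cluster 5. In AppSAA ATV:4D9 mice, ratios above log2 0.5 were found for 24 of 31 subunits in cluster 2, 20 in cluster 4 and 15 in cluster 5, against 19.9%, 23.7% and 15.1% of the 8028 genes at a mean of 10 CPM or more.

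**Figure D3:**
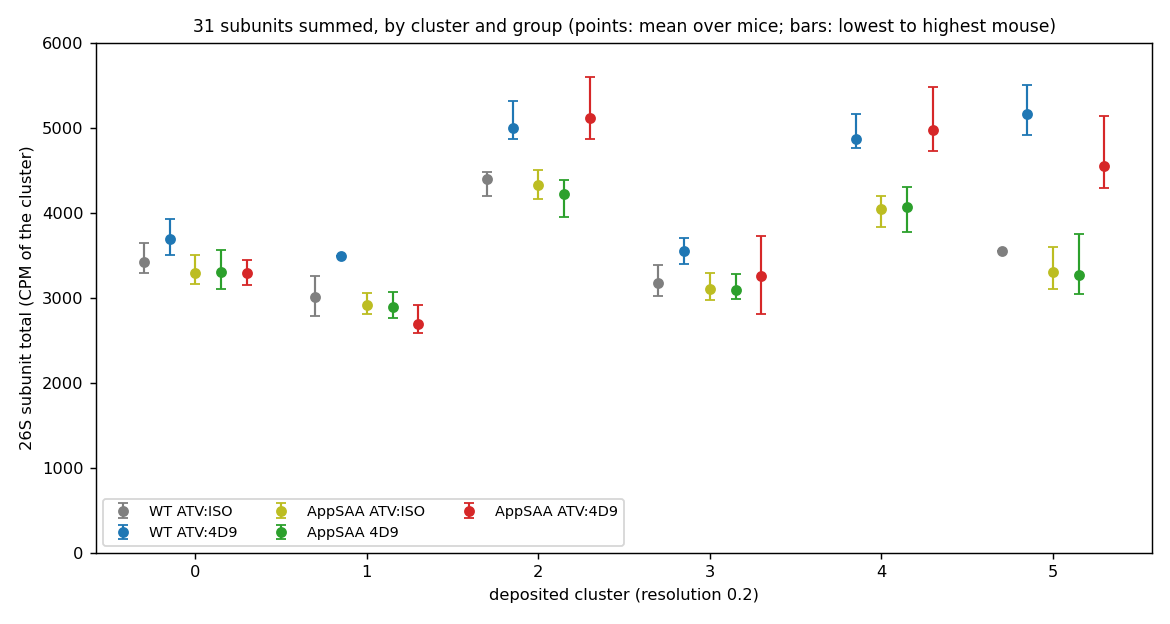
Summed level of the 31 subunits (y axis, CPM within the cluster) by deposited cluster (x axis) and group; points are means over mice and bars run from the lowest to the highest mouse, for sums of at least 20 cells. Clusters 2 and 4 lie above clusters 0, 1 and 3 in every group shown there, and in clusters 2 and 4 the ATV:4D9 groups lie above the other groups.

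Single members kept their own order among clusters. In AppSAA ATV:4D9 mice, Psmd14 averaged 55.6 CPM in cluster 0, 33.1 in cluster 1, 94.7 in cluster 2 and 98.3 in cluster 4, and Psmb5 averaged 154, 112, 225 and 213 CPM. Psmb1 was nearly level, with log2 ratios to cluster 0 between -0.17 and 0.20. Psme1 and Psme2 were highest in cluster 5, the cluster led by interferon-induced genes, at 602 ± 53.9 and 397 ± 66.1 CPM against 283 ± 42.7 and 159 ± 33.7 CPM in cluster 0. Psme2b was at 31.7 ± 3.25 CPM in cluster 5 and at 13.7 ± 2.16 and 12.5 ± 0.636 CPM in clusters 2 and 4. Psmc3ip was at 52.7 ± 2.97 CPM in the Mki67-led cluster 4 and 25.8 ± 1.21 CPM in cluster 2, against 5.59 ± 4.17 CPM in cluster 0, where it rests on 11 UMIs.

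The share of cells in each cluster differed between the groups. Cluster 0 held 60.4% of the cells of WT ATV:ISO mice and 3.11% of those of WT ATV:4D9 mice (means of 4 mice), and 30.8% and 2.52% in the AppSAA groups. Clusters 2 and 4 held 47.8% and 40.0% of cells in WT ATV:4D9 mice and 35.4% and 22.4% in AppSAA ATV:4D9 mice, and cluster 5 held 22.4% in the latter and 4.21% in the former. In cluster 2 the 26S total was 4202 to 4474 CPM in WT ATV:ISO mice (23 to 42 cells each) and 4868 to 5320 CPM in WT ATV:4D9 mice, and 4163 to 4501 and 4869 to 5601 CPM in the AppSAA groups. These ranges did not overlap. In cluster 0 they did, with 3290 to 3645 and 3499 to 3924 CPM in the WT groups and 3161 to 3507 and 3144 to 3441 CPM in the AppSAA groups.

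Within clusters, ATV:4D9 was tested against ATV:ISO in cluster 0 for both genotypes and in cluster 1 for AppSAA mice, and genotype in cluster 0 under ATV:ISO and in clusters 2 and 4 under ATV:4D9, on cells already sorted by their expression. ATV:4D9 against ATV:ISO was not tested in clusters 2, 3, 4 and 5, or in cluster 1 for WT mice. In cluster 0, ATV:4D9 against ATV:ISO in WT mice gave 2 members higher, Psma1 (log2 0.34 ± 0.09, adjusted p = 0.0479) and Psmd1 (0.49 ± 0.13, adjusted p = 0.0476), where 1.59% of all genes were called, and a median of 0.16 over the 31 subunits. Both calls were lost without the filter on low counts and, for 6 of the 8 mice, without that mouse, and 9 members were higher with the pool as a block, where 5.41% of all genes were. In AppSAA mice the median in cluster 0 was 0.04, and edgeR called 0 members (0.659% of all genes; 3 members at an unadjusted p under 0.05, limma-voom 0, DESeq2 1, Psma5). With the pool as a block 5 members were higher, where 3.87% of all genes were. For genotype under ATV:ISO in cluster 0, edgeR, DESeq2 and limma-voom called 0 members (0.231% of all genes; 1 member, Psmg2, at an unadjusted p under 0.05), and the block gave 2 higher, where it called 3.18% of all genes higher. The ATV:4D9 mice had 37 to 195 cells in cluster 0.

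In cluster 1, ATV:4D9 against ATV:ISO in AppSAA mice had a median of -0.09 over the 31 subunits, and edgeR, DESeq2 and limma-voom called 0 members (1.54% of all genes; 4 members at an unadjusted p under 0.05). With the pool as a block 1 member, Psme1, was higher and 4 were lower, Psmc4, Psmd1, Psmd6 and Psmd12, where 4.53% of all genes were higher and 3.57% lower. Between AppSAA and WT mice given ATV:4D9, the medians were 0.12 in cluster 2 and 0.12 in cluster 4, and all 31 subunit estimates were above 0 in each. Medians over all genes tested were -0.007 and -0.002, and the share of all genes above 0 was not counted. The smallest edgeR adjusted p among the 31 subunits was 0.765 in cluster 2 and 0.606 in cluster 4. In cluster 2 edgeR and DESeq2 called 0 members (1.95% of all genes; 2 members, Psme1 and Psme2, at an unadjusted p under 0.05, both called by limma-voom and with the pool as a block, which called 4.38% of all genes higher). In cluster 4 edgeR called Psme1 alone (0.39 ± 0.11, adjusted p = 0.0429; 2.79% of all genes). That call was lost in 6 of the 8 runs without 1 mouse and without the filter on low counts, and the pool as a block gave 4 members higher, where 6.22% of all genes were.

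**Figure D4:**
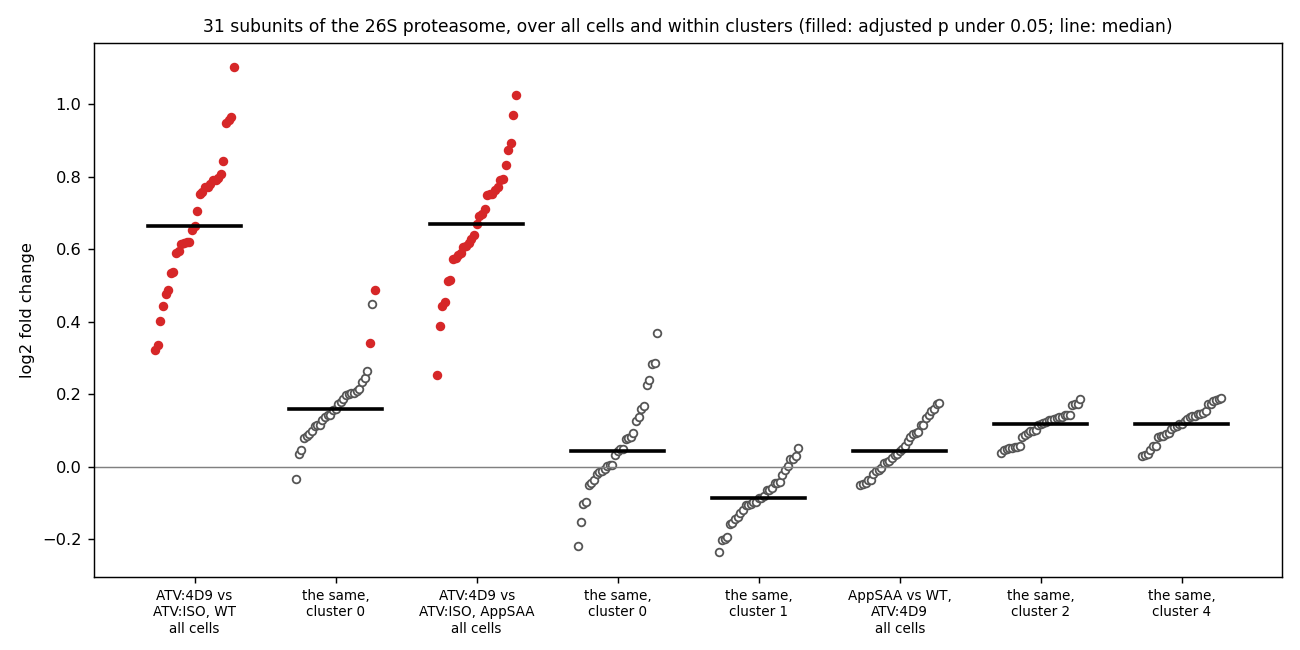
Log2 fold changes (y axis) of the 31 subunits, 1 point each, for 3 comparisons over all cells and within single clusters (x axis); filled points had an adjusted p under 0.05 and lines are medians. The medians of 0.66 and 0.67 over all cells stand against 0.16 and 0.04 in cluster 0 and -0.09 in cluster 1.

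Genes that work beside the proteasome were counted in the same fits, where 30.8% of all genes were higher and 32.5% lower in WT mice and 27.9% and 27.1% in AppSAA mice. Of 9 further 26S subunits, assembly factors and bound enzymes, 7 were higher and 2 lower with ATV:4D9 in WT mice, and 7 and 1 in AppSAA mice. Uchl5 and Usp14, the deubiquitinases that bind the 19S particle, rose by log2 1.16 and 0.89 in WT mice, and the core assembly factor Pomp rose by 0.66. Akirin2, which carries proteasomes into the nucleus, fell by 0.94 in WT and by 0.56 in AppSAA mice. All 8 subunits of the CCT chaperonin, a folding machine for actin and tubulin, rose in both genotypes, with medians of 0.97 and 0.82. Of 9 subunits of the COP9 signalosome, a relative of the lid, 7 and 8 rose, with medians of 0.50 and 0.30.

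Against the same shares of all genes (30.8% and 32.5% in WT, 27.9% and 27.1% in AppSAA mice), further lists were counted. Of 13 genes of the p97 unfoldase and the ubiquitin shuttles, 7 were higher and 2 lower in WT mice and 8 and 2 in AppSAA mice, with Vcp, which encodes p97, at 0.59 and 0.50. Of 7 genes of the NFE2L1 route, the factor known to restore proteasome synthesis, 2 were higher and 3 lower in WT mice and 0 and 3 in AppSAA mice. Nfe2l1 itself was at 0.25 (adjusted p = 0.0372) and 0.12 (adjusted p = 0.303). Of 8 tested genes of the NFE2L2 list, 2 and 3 rose, Txnrd1 (1.31 and 0.95) and Srxn1 (1.45 and 1.08) in both genotypes.

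The 3 interferon-inducible core subunits that the rule left out are given beside their constitutive counterparts, with no test between them. Psmb8, Psmb9 and Psmb10, which replace Psmb5, Psmb6 and Psmb7 in that form of the core, changed by log2 0.38, -0.02 and 0.16 with ATV:4D9 in WT mice, where only Psmb8 was called, and rose by 0.56, 0.51 and 0.65 in AppSAA mice. The interaction was called for Psmb9 (0.53, adjusted p = 0.0224). Under ATV:4D9 all 3 were higher in AppSAA than in WT mice, by 0.53, 0.70 and 0.49, while Psmb5, Psmb6 and Psmb7 were at 0.10, 0.18 and 0.09 and were not called. Of all genes, 7.85% were called higher in this comparison and 3.74% in the interaction. With ATV:4D9 against ATV:ISO, 30.8% were called higher in WT and 27.9% in AppSAA mice.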

How the data were processed

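Single-cell UMI counts of 74758 cells from 20 mice (5 groups of 4, in 4 pools) were analysed. The deposited counts are whole UMI counts per gene and cell that the authors made with Cell Ranger version 6.1.1 on mm10 (GRCm38). The filters they set on cells and genes, the treatment of doublets and the use of strand in counting were not given in the sources used here, and no doublet caller was run. The sources differ on whether cortex alone or cortex with hippocampus was taken and on the gate (CD11b+, or Cd45+/Cd11b+). Groups, pools and clusters came from the deposited annotation of each cell. The members and gene lists were chosen with earlier results of these data known.

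Sums of counts were taken over all cells of a mouse and, for clusters in which it had at least 20 cells, over those cells. All 5 groups were fitted together with edgeR 4.0.16 (R 4.3.3) with TMM scaling, its filter on low counts and the two-sided quasi-likelihood test, and p-values were adjusted by Benjamini-Hochberg over all genes tested. Fold changes are therefore relative to other genes, and levels are CPM of a mouse or cluster. The steps were tested on simulated data that had no pool effect and few changed genes, so that test does not cover these features of the real data. Mice sharing a pool deviated together (40 pairs of mice, correlations 0.141 to 0.603) and the labels state that a pool held 1 mouse of each group, so a fit with the pool as a block was run beside the main one. The lowest chi-square per degree of freedom over 30 pairs of mice of a group was 9.0, so no library was a copy of another. Other alternatives were RLE scaling, no filter, DESeq2 1.42.0, limma-voom (limma 3.58.1), cells of 1000 to 25000 UMIs only, at least 50 cells per cluster sum, and leaving out each mouse. Values in every mouse were given for the catalytic subunits, the member of each class with the largest change in WT mice, members that moved against the rest, and members called in the interaction. One of the gene lists is not reported here.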

Additional observations from a re-analysis of the deposited data

Results flagged for a closer look

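In 4 of 70 sets of 4 mice, 1 mouse lay far from the other 3. That is close to the share that chance alone gives, about 1 in 20. All 4 came from the WT or the AppSAA mouse of pool 1 given ATV:4D9. The sets are not independent, since the 26S total includes Psmb5 and Psmd1. The 26S total was 0.518% of UMIs in the WT mouse, with the others at 0.475% to 0.480%, and 0.527% in the AppSAA mouse, with the others at 0.439% to 0.442%. Psmb5 was at 231 CPM in the WT mouse against 199 to 201 CPM in the others of its group, and Psmd1 was at 121 CPM in the AppSAA mouse against 106 to 107 CPM. Pool 1 also held the highest 26S total in each of the other 3 groups, and the part of the pool in these values was not tested.

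The change with ATV:4D9 differed between genotypes for 4 genes of the members and lists by the edgeR interaction test, which called 3.74% of all genes higher and 5.3% lower. Of the 46 members tested 1 was called higher and 1 lower, which are smaller shares than those of all genes. Of the lists, 1 of 3 interferon-inducible core genes and 1 of 7 NFE2L1 route genes were called, and none of the others. The change was smaller in AppSAA mice for Psmc3ip (log2 -0.58, adjusted p = 0.0244) and for Maff, a small MAF partner of NFE2L1 (-1.72, adjusted p = 0.000326). No NFE2L1 route gene, Maff included, was called higher with ATV:4D9 in AppSAA mice. Already under ATV:ISO, 2 of these 7 genes were called higher in AppSAA than in WT mice (14.4% of all genes). The highest log2 value in the list was 2.33 there. For Psme2b the fall was smaller in AppSAA mice (0.81, adjusted p = 0.00049), and for Psmb9 the value was higher in AppSAA mice (0.53, adjusted p = 0.0224).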

How the results depend on the processing

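Over all cells, the calls of members higher with ATV:4D9 stayed within 1.5 times under every alternative run. With the pool as a replicate block, members called lower numbered 2 for ATV:4D9 in WT mice, 1 in AppSAA mice against ATV:ISO and 1 against 4D9. Of all genes, 39%, 36.1% and 35.5% were called lower in these fits. With that block the genotype comparison gave 12 higher and 3 lower under ATV:ISO and 9 higher under ATV:4D9, and the interaction 3 higher and 5 lower. In clusters the block gave, for members higher, 9 (cluster 0, WT), 2 (cluster 0, genotype), 5 (cluster 0, AppSAA), 1 (cluster 1, with 4 lower), 2 (cluster 2) and 4 (cluster 4), and it changed no other member count by over 1.5 times. Over all genes the block raised the calls from 2027 higher and 1929 lower to 3011 and 4116 (genotype, ATV:ISO), from 1103 and 564 to 2376 and 2025 (genotype, ATV:4D9), from 526 and 745 to 2345 and 1893 (interaction), and in clusters from 123 and 63 to 632 and 463 (cluster 0, WT), 25 and 2 to 372 and 193 (cluster 0, genotype), 62 and 15 to 452 and 235 (cluster 0, AppSAA), 131 and 56 to 552 and 435 (cluster 1), 175 and 13 to 421 and 296 (cluster 2) and 285 and 32 to 705 and 394 (cluster 4). Without the filter the counts were 0 lower for genotype under ATV:ISO, and 0, 1 and 0 higher in clusters 0 (WT), 2 and 4. With limma-voom they were 1 lower for ATV:4D9 in AppSAA mice, 0 lower for the interaction, and 1, 2 and 2 higher in those clusters. With DESeq2 they were 1 lower for ATV:4D9 in AppSAA mice and 1 higher in cluster 0 of AppSAA mice. With at least 50 cells they were 1 (cluster 0, WT) and 0 (cluster 4), and cluster 0 of AppSAA mice could not be fitted because fewer than 3 mice of a group were left. The cause of these shifts was not tested.

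Leaving out 1 mouse at a time gave 38 to 43 members higher for ATV:4D9 in WT mice, 39 to 43 in AppSAA mice with 0 to 1 lower, and 39 to 43 against 4D9. Of all genes, 28.6% to 30%, 24.7% to 28.1% and 24% to 28% were called higher in these runs, and 23.3% to 25.8% lower in AppSAA mice against ATV:ISO. For genotype, leaving out 1 mouse gave 3 to 6 members higher and 0 to 2 lower under ATV:ISO, and 2 to 4 and 0 to 1 under ATV:4D9. Of all genes, 12.5% to 14.1% were higher and 9.68% to 13.2% lower, and 5.93% to 7.66% and 1.74% to 4.46%. The interaction gave 1 and 0 to 2, with 2.32% to 5.75% and 4.24% to 7.38% of all genes. Each of clusters 0 (WT), 2 and 4 gave 0 to 2 higher, with 0.448% to 1.23%, 1.22% to 2.02% and 1.73% to 2.86% of all genes. Of the values of single genes and the counts of list genes called higher, 400 kept their side of the threshold or stayed within 1.5 times. Values of single genes lost the threshold in 17 cases and gained it in 4, and none changed direction. The other 3 were list counts that moved further. ATV:4D9 mice had 37 to 195 cells in cluster 0, the smallest sums tested.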
